A study of Mus musculus with 2 samples.

Results

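Autosomal genes of 6 families of histone lysine modifying enzymes are described here in KPC2 cells, a mouse pancreatic cancer line, kept long term in 260 ng/mL gemcitabine and named gemcitabine-resistant, and in untreated KPC2 cells named wild type. Gemcitabine is a deoxycytidine analogue used against pancreatic cancer. Members were chosen by symbol: Kdm, Kmt, Setd, Hdac, Kat or Sirt followed by a number and, where present, further letters. The rule found 57 of the 55468 genes in the deposited table, after 5 genes with such symbols on chromosomes X and Y were left out. RNA was sequenced from 1 gemcitabine-resistant and 1 wild type library, so no test between conditions was possible and every difference below is between 2 libraries. Gemcitabine was present in the medium of the resistant cells only. A state that lasts without the drug and an effect of the drug in the medium cannot be told apart. The labels do not say whether the resistant cells are 1 clone.

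Lysine residues on histone tails carry methyl and acetyl groups that mark active or silent chromatin. Methyltransferases with a SET domain (the Kmt and Setd genes) write methyl marks and demethylases (Kdm genes) remove them, either as flavin-dependent amine oxidases or as iron- and 2-oxoglutarate-dependent JmjC enzymes. Acetyltransferases (Kat genes) write acetyl marks and deacetylases remove them, either with zinc (Hdac genes) or with NAD+ (Sirt genes). Most of these enzymes work inside large complexes, and mutations of Kmt2c, Kmt2d and Setd2 orthologues recur in human cancers.

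Values are FPKM, fragments scaled by transcript length and by the size of the library. A gene was taken as measured if either library reached 1 FPKM. Differences are log2((resistant FPKM + 1)/(wild type FPKM + 1)), and a gene is described as at least 2-fold higher from a log2 ratio of 1 upwards and as at least 2-fold lower from -1 downwards. At 1 FPKM a 2 kb transcript rested on about 42.0 fragments in the resistant and 43.4 in the wild type library. As a check of the labelled cell type, the epithelial keratin genes Krt8, Krt18 and Krt19 stood between 1722 and 1864 FPKM in the resistant and between 1123 and 1332 FPKM in the wild type library. The epithelial genes Epcam and Cldn4 were near 0, at 0.10 and 0.052 FPKM in the resistant library, while in the wild type Epcam stood at 0.21 FPKM and Cldn4 was listed at 0. Of 32 markers of fibroblasts, leukocytes, acinar, islet and endothelial cells, 27 were under 1 FPKM in both libraries. The 5 others were Cd68, Lyz2, Cela1, Pdx1 and Egfl7. The 7 leukocyte markers summed to 7.24 FPKM in the resistant and 1.60 FPKM in the wild type library, with Cd3e listed at 0 in both. Whether that difference has a part in the results below was not tested.

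Of the 57 members, 53 were measured. The other 4 were the class IIa deacetylase gene Hdac9 (0.058 FPKM in the resistant and 0.063 FPKM in the wild type library), the H3K9 demethylase gene Kdm4d (0.017 FPKM, listed at 0 in the wild type), Kdm4dl (listed at 0 in the resistant, 0.041 FPKM in the wild type) and Kdm6bos (0.064 and 0.12 FPKM). Kdm4dl is annotated as an unprocessed pseudogene. Kdm6bos is not an enzyme gene either but a transcript opposite Kdm6b, whose locus it shares. Nothing in the labels states whether strand was used, so reads of that pair cannot be told apart.

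Across the 53 measured members, 2 were at least 2-fold higher in the resistant library, where 7.90% of all 12193 measured genes were. At least 2-fold lower were 5, where 8.37% of all measured genes were. Either way 13.2% of the members were at least 2-fold apart, against a background of 16.3% of all measured genes and 15.3% of the measured protein-coding genes of the autosomes, of which 7.24% were higher and 8.10% lower. When 5 FPKM was required in at least 1 library, 2 of 40 members were higher and 5 lower. Under that filter 7.76% of all genes were higher and 7.84% lower. Log2 ratios above 0 were found for 26 members and below 0 for 27, and the median was -0.06, beside 0.02 over all measured genes. From the lower to the upper quartile the members spanned -0.51 to 0.42, and all measured genes -0.46 to 0.44. Summed over the 53 members, the resistant library held 771 FPKM and the wild type 760 FPKM. Over all rows the resistant library summed to 1197280 FPKM and the wild type to 998508 FPKM. Sums of FPKM, here and below, are therefore not shares of a library. All 7 members past 2-fold were demethylase or SET-domain genes. Of the 15 measured deacetylase genes and the 8 acetyltransferase genes, none was at least 2-fold apart on this scale.

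**Figure D1:**
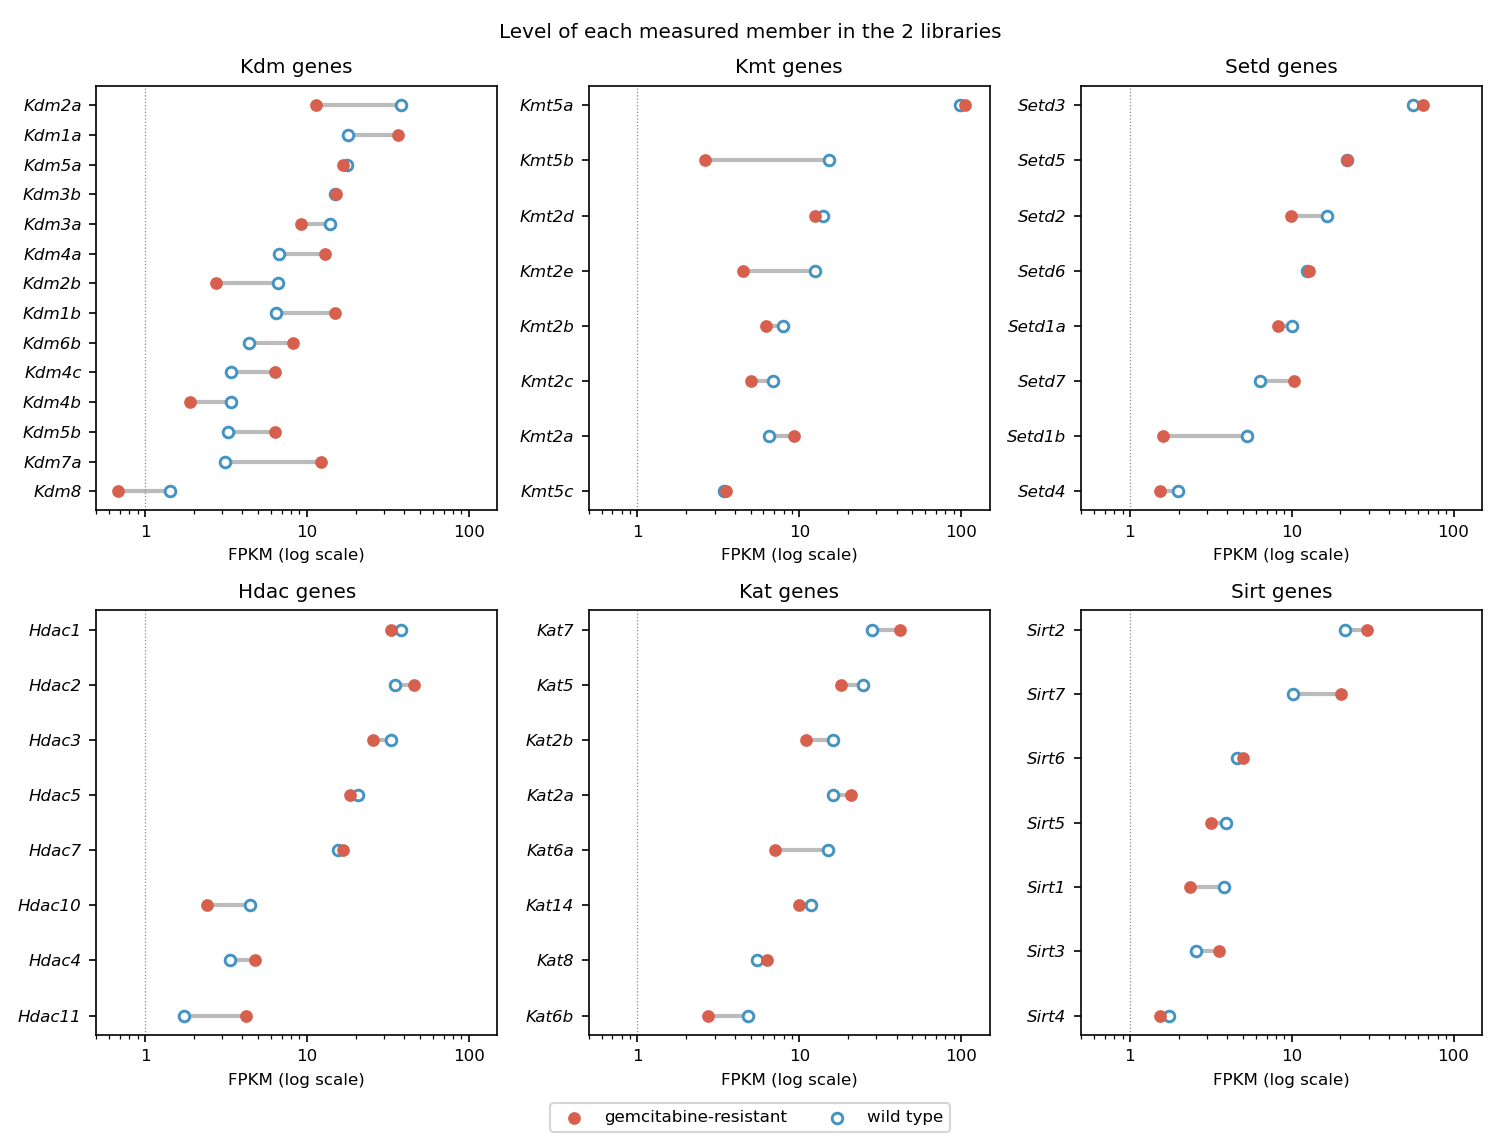
FPKM (log axis) of each of the 53 measured members in the gemcitabine-resistant (filled) and wild type (open) library, 1 panel per gene family, ordered by the wild type level. Each point is 1 library. Kmt5a is at the top of both libraries at 106 and 98.5 FPKM, and the longest bars join the values of Kmt5b, Kdm2a, Setd1b and Kdm7a.

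The order of the levels was led by the same 2 genes in both libraries. Kmt5a, which encodes the H4K20 monomethyltransferase of dividing cells, stood at 106 FPKM in the resistant and 98.5 FPKM in the wild type library. Setd3, whose product methylates a histidine of actin, came second at 65.0 and 56.0 FPKM. The class I deacetylase gene Hdac2 ranked 3 in the resistant and 5 in the wild type library. Rank changed most for Kdm7a, at 21 of 57 in the resistant and 48 in the wild type library, and for Kmt5b, at 46 and 18. Over the 53 members the levels in both libraries had a Spearman correlation of 0.81, as a description of genes that share libraries. This was below the 0.89 over all measured genes and 0.91 over autosomal protein-coding ones. The members covered a narrower range of levels, up to 106 FPKM, while Krt18 reached 1864 FPKM. A narrower range can lower such a correlation, and its part was not tested. From lower to upper quartile, log2 ratios spanned 0.93 for members and 0.90 for all measured genes.

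Of the 6 families, the demethylase genes had the widest range of log2 ratios. Of 14 measured Kdm genes, 2 were at least 2-fold higher and 2 at least 2-fold lower, beside 7.90% and 8.37% of all measured genes, and their log2 ratios ran from -1.65 to 1.68. Kdm7a had the highest ratio of all members. Its product removes methyl groups from H3K9 and H3K27 and binds H3K4me3 through a PHD finger. Kdm7a stood at 12.3 FPKM in the resistant and 3.14 FPKM in the wild type library, a log2 ratio of 1.68. The FPKM were 3.91-fold apart, with an interval for counting error alone of 3.59 to 4.26 (95%, exact binomial). Both flavin-dependent genes, whose products act on H3K4me1 and H3K4me2, were higher in the resistant library. Kdm1b stood at 15.0 against 6.41 FPKM in the wild type (log2 ratio 1.11). Kdm1a, known as LSD1, the catalytic subunit of the CoREST complex, stood at 36.5 against 17.9 FPKM (log2 ratio 0.99). Kdm1a thus lay just inside the 2-fold line, and its FPKM taken as such were 2.04-fold apart. The sum of the pair was 51.5 FPKM in the resistant and 24.3 FPKM in the wild type library.

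At the other end of the same family stood both Kdm2 genes. Their products have a CXXC zinc finger that binds unmethylated CpG islands, and a JmjC domain that acts on H3K36me2 and H3K36me1. Kdm2a stood at 11.4 FPKM in the resistant and 38.0 FPKM in the wild type library, a log2 ratio of -1.65. In the wild type it was the highest of the Kdm genes and the 4th highest member. Kdm2b, which also brings a Polycomb complex to CpG islands, stood at 2.76 against 6.65 FPKM in the wild type (log2 ratio -1.02). Both genes also make shorter forms without the JmjC domain, and values per gene do not tell the forms apart.

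The remaining 9 Kdm genes with a JmjC enzyme lay within 2-fold. Nearest to the line were 4 that were higher in the resistant library. Kdm4a and Kdm4c, for demethylases of H3K9me3 and H3K36me3, stood at 13.0 against 6.72 FPKM and at 6.38 against 3.39 FPKM in the wild type. Kdm5b, for an H3K4me3 demethylase, stood at 6.39 against 3.27 FPKM. Kdm6b, for an H3K27me3 demethylase that is induced in inflammation, stood at 8.22 against 4.36 FPKM. These 4 log2 ratios ran from 0.75 to 0.86. The close paralogues did not share them: Kdm4b stood at 1.90 against 3.38 FPKM (log2 ratio -0.59) and Kdm5a at 16.8 against 17.6 FPKM (-0.06). The H3K9me1 and H3K9me2 demethylase genes Kdm3a and Kdm3b stood at 9.16 against 13.9 and 15.2 against 14.8 FPKM. Kdm8 was near the level filter at 0.68 against 1.42 FPKM, and with no pseudocount it was past 2-fold, with a log2 ratio of -1.06. The Kdm log2 ratios held no value between 0.03 and 0.75, so the family median of 0.39 lay in a gap.

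**Figure D2:**
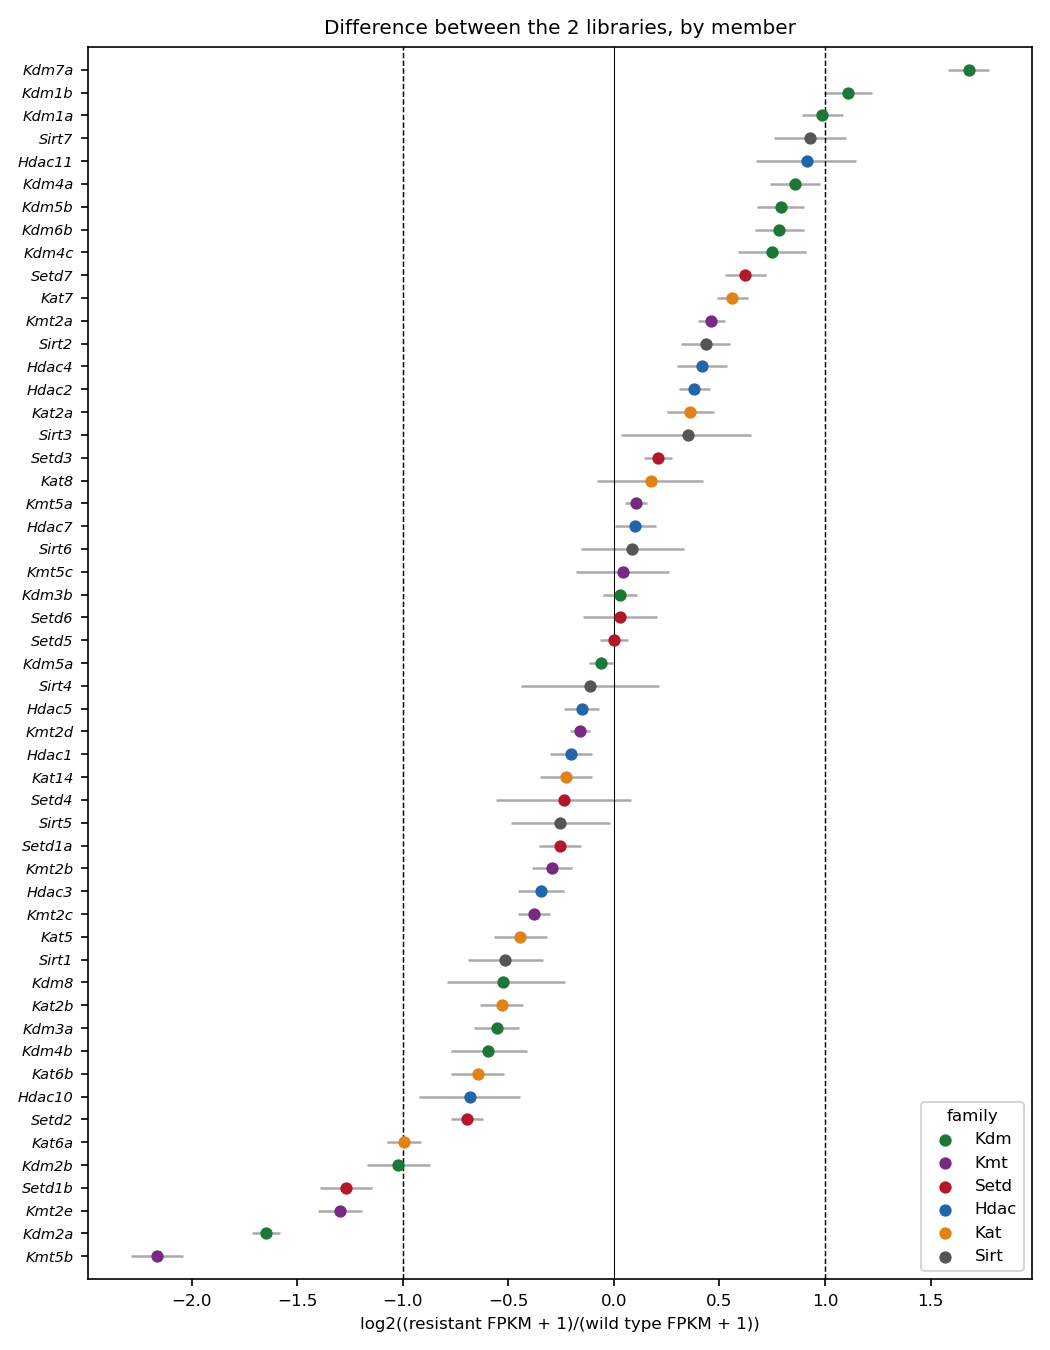
Log2 ratio of each measured member, resistant over wild type, on the log2(FPKM + 1) scale, coloured by family. Grey bars are 95% intervals for counting error alone, carried over from the fragments estimated for the longest coding transcript, and dashed lines mark 2-fold. Kdm7a (1.68) and Kdm1b (1.11) lie above the upper line, and Kdm2b, Setd1b, Kmt2e, Kdm2a and Kmt5b (-1.02 to -2.16) beyond the lower one.

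Among the SET-domain genes, 3 of 16 were at least 2-fold lower in the resistant library and none was at least 2-fold higher, beside 8.37% and 7.90% of all measured genes. Kmt5b had the lowest log2 ratio of all members. Its product turns monomethylated H4K20 into the di- and trimethylated forms, a mark of heterochromatin and of replication origins. Kmt5b stood at 2.60 FPKM in the resistant and 15.2 FPKM in the wild type library, a log2 ratio of -2.16. The resistant value was 0.172 of the wild type value, with a counting interval of 0.153 to 0.192. Its paralogue Kmt5c, also for an H4K20 methyltransferase, stood at 3.54 against 3.41 FPKM in the wild type. In the wild type library Kmt5b was the higher of this pair, and in the resistant library Kmt5c was. Both were far below Kmt5a, which makes the monomethyl substrate.

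The H3K4 methyltransferases sit in COMPASS complexes, in which Kmt2a and Kmt2b, Kmt2c and Kmt2d, and Setd1a and Setd1b form 3 pairs. Setd1b stood at 1.60 FPKM in the resistant and 5.26 FPKM in the wild type library, a log2 ratio of -1.27, and Setd1a at 8.27 against 10.1 FPKM (-0.25). Kmt2a stood at 9.28 against 6.46 FPKM in the wild type (0.46) and Kmt2b at 6.27 against 7.91 FPKM (-0.29). The enhancer enzymes' genes Kmt2c and Kmt2d stood at 5.07 against 6.89 and 12.5 against 14.1 FPKM. Setd1b was thus the only one of these 6 genes past 2-fold. Kmt2e, a relative with no established methyltransferase activity, stood at 4.47 against 12.4 FPKM in the wild type, a log2 ratio of -1.30.

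The other Setd genes lay within 2-fold. Setd2, for the enzyme that trimethylates H3K36 behind RNA polymerase II, stood at 9.86 FPKM in the resistant and 16.6 FPKM in the wild type library (log2 ratio -0.69). Setd7, for a monomethyltransferase of H3K4 and of many non-histone proteins, stood at 10.4 against 6.38 FPKM (0.62). Setd5 was nearly equal at 22.03 and 22.02 FPKM. Setd6, for an enzyme that methylates the NF-kB subunit RelA, stood at 12.8 against 12.5 FPKM, and Setd4 at 1.53 against 1.98 FPKM.

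The region around the transcription start is shown for the members with the highest log2 ratios, Kdm7a and Kdm1b, and for the lower members past 2-fold that were matched to a window, Kdm2b and Kmt5b, so that a reader can see what kind of promoter each has. Sequences are from RefSeq on GRCm38.p6, 250 bases before to 50 after the most upstream start listed, on the gene's strand. Capitals mark the GC box GGGCGG, bound by SP1-type factors, on either strand. The windows are chr6:39206724-39207023 (minus strand) for Kdm7a, chr13:47043249-47043548 (plus) for Kdm1b, chr5:122989050-122989349 (minus) for Kdm2b and chr19:3767171-3767470 (plus) for Kmt5b.
Kdm7a: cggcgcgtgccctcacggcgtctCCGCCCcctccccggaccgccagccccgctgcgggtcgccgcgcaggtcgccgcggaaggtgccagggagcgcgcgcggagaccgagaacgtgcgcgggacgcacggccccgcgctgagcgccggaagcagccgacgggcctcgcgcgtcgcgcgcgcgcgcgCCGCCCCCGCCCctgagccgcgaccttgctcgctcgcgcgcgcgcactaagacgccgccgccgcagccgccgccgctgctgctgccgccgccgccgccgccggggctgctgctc
Kdm1b: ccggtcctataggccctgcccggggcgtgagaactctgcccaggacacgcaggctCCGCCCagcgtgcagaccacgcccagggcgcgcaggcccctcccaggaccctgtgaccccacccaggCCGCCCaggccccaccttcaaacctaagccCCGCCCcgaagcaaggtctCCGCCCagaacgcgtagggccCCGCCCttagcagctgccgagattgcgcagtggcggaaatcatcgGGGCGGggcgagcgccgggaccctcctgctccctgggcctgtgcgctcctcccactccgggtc
Kdm2b: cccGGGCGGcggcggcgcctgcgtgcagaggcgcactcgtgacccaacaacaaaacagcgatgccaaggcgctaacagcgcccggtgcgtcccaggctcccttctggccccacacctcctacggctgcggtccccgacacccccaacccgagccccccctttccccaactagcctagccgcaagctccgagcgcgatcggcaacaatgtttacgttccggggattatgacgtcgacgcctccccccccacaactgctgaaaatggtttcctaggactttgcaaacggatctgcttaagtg
Kmt5b: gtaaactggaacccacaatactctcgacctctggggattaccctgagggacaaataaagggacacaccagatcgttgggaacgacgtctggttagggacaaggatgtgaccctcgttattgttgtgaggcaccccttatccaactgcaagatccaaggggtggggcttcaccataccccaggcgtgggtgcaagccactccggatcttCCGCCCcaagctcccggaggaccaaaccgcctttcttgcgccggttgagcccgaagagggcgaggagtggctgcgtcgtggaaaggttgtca

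All 4 windows were rich in G and C, at 82.7% for Kdm7a, 72.3% for Kdm1b, 63.7% for Kdm2b and 57.3% for Kmt5b. They held 65, 26, 28 and 16 CpG dinucleotides in that order. GC boxes numbered 3 in Kdm7a, 6 in Kdm1b and 1 each in Kdm2b and Kmt5b, overlapping matches counted. Windows were found for 41 measured members, 60.7% G and C at the median, with 22 CpG, against 52.7% and 7 CpG over 27025 windows of the same length for all genes. The 27025 windows were not limited to genes measured here, and shares over measured genes alone were not computed. Differences from them therefore cannot be read as particular to these families. A GC box stood in 25 of the 41 (61.0%) against 35.9% of all windows. The TATA box TATAAA was in none of the 41 and in 14.2% of all windows. The cAMP response element TGACGTCA was in none of the 41 and in 1.85% of all windows, and the ATF4-type motif TGATGCAA in none and in 0.929%. The ETS core CCGGAA stood in 13 of 41 (31.7%, against 15.2%), the CCAAT box in 17 (41.5%, against 38.0%) and the E-box CACGTG in 3 (7.32%, against 7.24%). All motifs were sought on both strands, and a match is a description of letters, not of binding.

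None of the 8 measured Hdac genes was at least 2-fold apart with a pseudocount of 1, where 16.3% of all measured genes were. At a pseudocount of 0.1 or with none, Hdac11 was past 2-fold. The class I genes Hdac1, Hdac2 and Hdac3, for the catalytic subunits of the NuRD, SIN3, CoREST and NCoR complexes, had the highest levels of the Hdac genes. Hdac1 stood at 33.3 FPKM in the resistant and 38.5 FPKM in the wild type library, Hdac2 at 45.8 against 34.9 FPKM and Hdac3 at 25.7 against 33.0 FPKM. Their sum was 105 FPKM in the resistant and 106 FPKM in the wild type library. The class IIa genes Hdac4, Hdac5 and Hdac7, for signal-regulated corepressors that shuttle between nucleus and cytoplasm, had log2 ratios of 0.42, -0.15 and 0.10. The widest differences were among low genes. Hdac11, the class IV gene, whose product removes fatty acyl groups, stood at 4.18 against 1.75 FPKM in the wild type (log2 ratio 0.92), with FPKM 2.40-fold apart and a counting interval of 1.89 to 3.04. Hdac10, for a polyamine deacetylase, stood at 2.42 against 4.48 FPKM (-0.68).

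Of the 7 sirtuin genes, Sirt7 differed most. Sirt7 encodes a nucleolar deacetylase of H3K18. It stood at 20.2 FPKM in the resistant and 10.1 FPKM in the wild type library, a log2 ratio of 0.93. Sirt2, for the mainly cytosolic tubulin deacetylase, was the highest sirtuin gene at 29.3 against 21.5 FPKM. Sirt1 stood at 2.37 against 3.81 FPKM (-0.51), and Sirt6, for a chromatin-bound deacetylase of H3K9, at 4.97 against 4.62 FPKM. The mitochondrial sirtuin genes Sirt3, Sirt4 and Sirt5 stood at 3.56 against 2.58, 1.53 against 1.74 and 3.15 against 3.95 FPKM. The family summed to 65.1 FPKM in the resistant and 48.3 FPKM in the wild type library, and Sirt7 and Sirt2 had its largest differences in FPKM. In the deposited table Sirt7 shares its locus with Mafg, and Sirt2 with Nfkbib and Ccer2.

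Acetyltransferase genes split within their MYST branch. Kat7, also known as HBO1, which acetylates H3 and H4 at replication origins and gene bodies, stood at 42.2 FPKM in the resistant and 28.2 FPKM in the wild type library (log2 ratio 0.56). The paralogues Kat6a and Kat6b, for the MOZ and MORF enzymes of H3K23 and H3K14, were both lower in the resistant library. Kat6a stood at 7.04 against 15.0 FPKM in the wild type, a log2 ratio of -0.99 just inside 2-fold, while its FPKM as such were 2.13-fold higher in the wild type. Kat6b stood at 2.73 against 4.84 FPKM (-0.65). Kat5, for the TIP60 enzyme of DNA damage repair, stood at 18.0 against 24.9 FPKM, and Kat8, for the H4K16 enzyme, at 6.36 against 5.52 FPKM. In the GNAT branch, the paralogues Kat2a and Kat2b of the SAGA and ATAC complexes differed in opposite directions, at 21.0 against 16.1 FPKM (0.36) and 11.0 against 16.3 FPKM (-0.53). Kat14, of the ATAC complex, stood at 9.90 against 11.7 FPKM.

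Around the 7 members past 2-fold, the 5 nearest measured protein-coding genes on each side gave 63 distinct genes that are not members, of which 58 lay within 2-fold. Of the 63, 3 were higher and 2 lower, where 15.3% of the measured protein-coding genes of the autosomes were past 2-fold either way. Kdm2b and Setd1b are 152 kb apart on chromosome 5, with 3 measured protein-coding genes between them. One of these, Rhof, a small GTPase gene next to Setd1b, stood at 15.5 FPKM in the resistant and 1.24 FPKM in the wild type library (log2 ratio 2.88). Orai1, the nearest of the 3 to Kdm2b, had a log2 ratio of -0.73. Outside the pair, Psmd9 beside Setd1b had a log2 ratio of -0.07 and Rnf34 beside Kdm2b one of -0.54. Kmt5b and Kdm2a are 496 kb apart on chromosome 19, with 20 measured genes between. The neighbours of Kmt5b were 1810055G02Rik (-0.54) and Chka (0.66), those of Kdm2a Grk2 (-0.26) and Rhod (-0.41), and the 5 measured genes on each side had medians of -0.54 and -0.20. Around Kmt5b, Cpt1a and Lrp5 were at least 2-fold lower as well, with log2 ratios of -1.30 and -1.17. Parp12 and Slc37a3 beside Kdm7a had log2 ratios of 0.28 and -0.19, Tpmt and Dek beside Kdm1b 0.70 and -0.74, and Orc5 and Srpk2 beside Kmt2e -0.48 and 0.50. In the deposited table Kdm1b, Kdm2b, Kmt2e and Kmt5b, and Kdm1a near the line, share their locus with another protein-coding gene. The labels do not state how fragments of genes in a shared locus were split. Kmt5b shares its locus with Chka, though their gene bodies do not overlap in the annotation used here. Without the 14 measured members that share a locus with another protein-coding gene, 39 members were left. Of the 39, 1 was at least 2-fold higher and 2 were lower, beside 7.90% and 8.37% of all measured genes, shared loci kept.

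**Figure D3:**
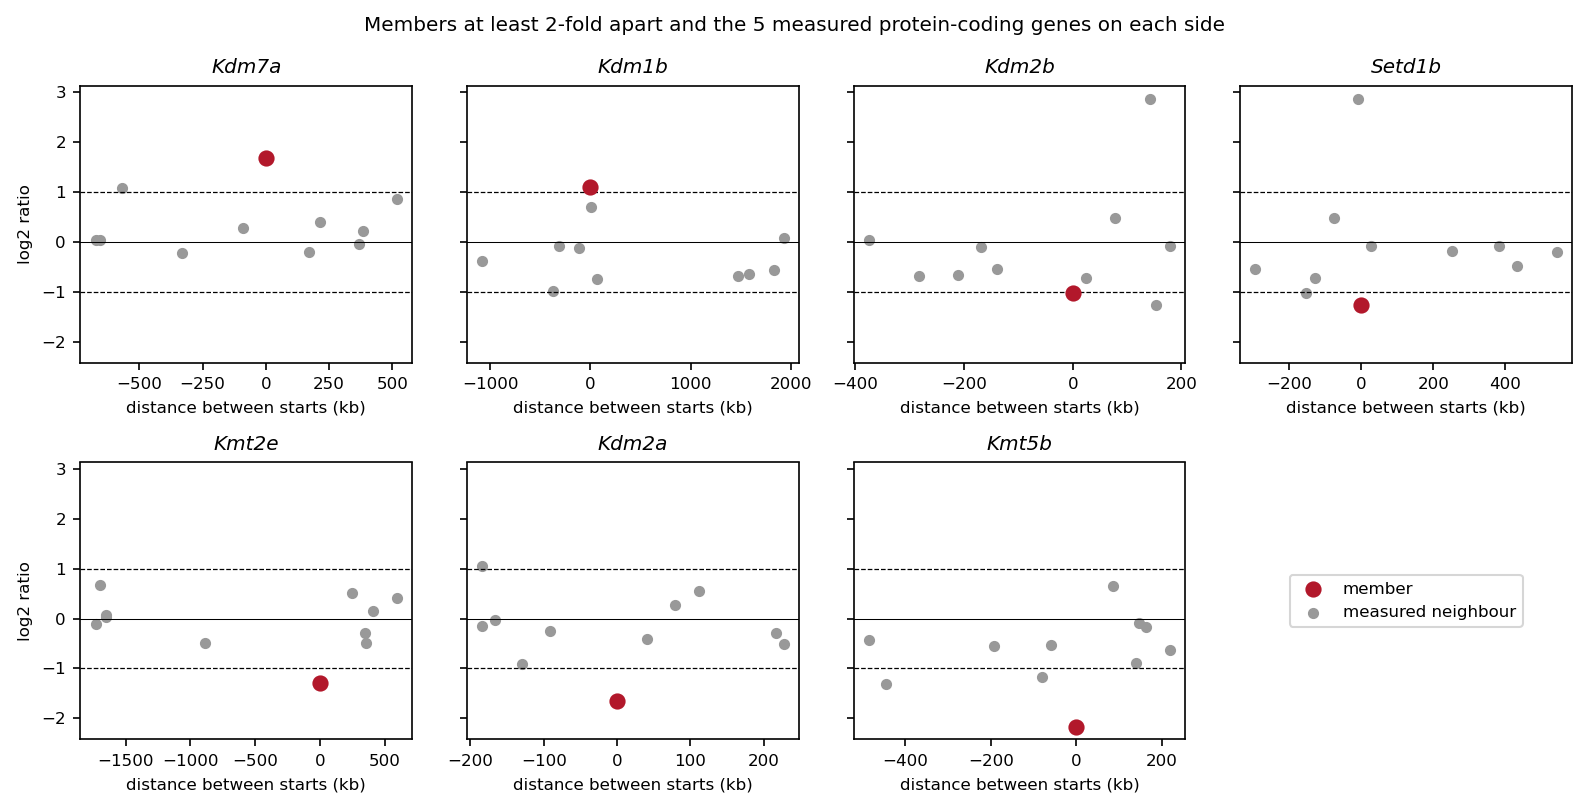
Log2 ratio, resistant over wild type, of each member at least 2-fold apart (large point at distance 0) and of the 5 measured protein-coding genes on each side, against the distance between their start sites in kb. Dashed lines mark 2-fold. For Kdm7a, Kdm1b, Kmt2e, Kdm2a and Kmt5b no neighbour shown lies as far from 0 in the member's direction, and Rhof (2.88) is the point high above Kdm2b and Setd1b.

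Genes whose products work with these enzymes were lower in the resistant library more often than higher. Over 7 lists of other writers, other erasers, complex subunits and readers, 156 distinct autosomal genes were measured, 25 were at least 2-fold lower and 2 at least 2-fold higher, beside 8.37% and 7.90% of all measured genes. Log2 ratios below 0 were found for 111 of the 156, and the median was -0.29, beside 0.02 over all measured genes. The lists were chosen by textbook role with earlier results of these data known, so their counts are a description. These counts depend on the pseudocount, as do the shares over all measured genes. With 5 FPKM added, 9 of the 156 were lower and none was higher, beside 2.44% and 3.51% of all measured genes. With none added 35 were lower and 2 higher, beside 12.6% and 10.5%.

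Other lysine methyltransferase genes included 2 of 18 at least 2-fold lower and 1 higher. Of all measured genes, 8.37% were lower (2.44% at a pseudocount of 5) and 7.90% higher, the background for each list below. Prdm16, for a PR-domain regulator, stood at 0.010 FPKM in the resistant and 5.00 FPKM in the wild type library. Nsd1, for an H3K36 dimethyltransferase, stood at 4.24 against 20.3 FPKM, and Smyd3 was higher at 12.8 against 5.41 FPKM. Of 9 other genes for demethylases and JmjC proteins, 4 were at least 2-fold lower (2 at a pseudocount of 5), with a median of -0.77. These were led by Hr, for an H3K9 demethylase that acts with nuclear receptors, at 1.23 against 9.43 FPKM, and by Hif1an, whose product hydroxylates HIF1A rather than histones, at 2.53 against 10.5 FPKM. Of 11 other acetyltransferase genes Naa40, for an N-terminal acetyltransferase of histones H2A and H4, was the one past 2-fold, at 2.12 against 7.72 FPKM. Crebbp stood at 9.57 against 19.5 FPKM (log2 ratio -0.95) and its paralogue Ep300 at 13.4 against 15.7 FPKM, both named after their values were seen.

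Of 13 COMPASS genes, 2 were at least 2-fold lower and the list's median was -0.30. The background for this and the next lists was again 8.37% lower (2.44% at a pseudocount of 5) and 7.90% higher. Men1, for menin, which holds Kmt2a and Kmt2b on chromatin, stood at 7.36 FPKM in the resistant and 25.8 FPKM in the wild type library. Pagr1a, for a partner of Kmt2c and Kmt2d, stood at 3.67 against 14.0 FPKM. The core subunit genes Wdr5, Ash2l, Dpy30 and Rbbp5, named after their values were seen, lay within 2-fold, with log2 ratios of -0.12, -0.11, -0.31 and 0.45. Of 37 HDAC corepressor subunit genes, 5 were at least 2-fold lower (0 at a pseudocount of 5) and none higher, with Arid4a of the SIN3 complex (2.16 against 9.18 FPKM) and Mier3 (3.41 against 11.7 FPKM) lowest and a median of -0.15. Of 42 subunit genes of acetyltransferase complexes, 7 were at least 2-fold lower and 1 higher, with a median of -0.48. The lower count was 1 at a pseudocount of 5 and 12 with none, beside 2.44% and 12.6% of all measured genes. Lowest were Tada1 of SAGA (2.80 against 9.03 FPKM) and Epc2 of NuA4 (2.97 against 9.43 FPKM), and Usp22, the SAGA deubiquitinase gene, was higher at 57.1 against 27.2 FPKM, though within 2-fold once the upper quartiles were made equal. Of 26 genes for readers of acetylated and methylated lysine, 4 were at least 2-fold lower and none higher, with a median of -0.41. Baz1b (11.1 against 30.3 FPKM) and Zmynd8 (7.01 against 19.4 FPKM) were the lowest of these.

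**Figure D4:**
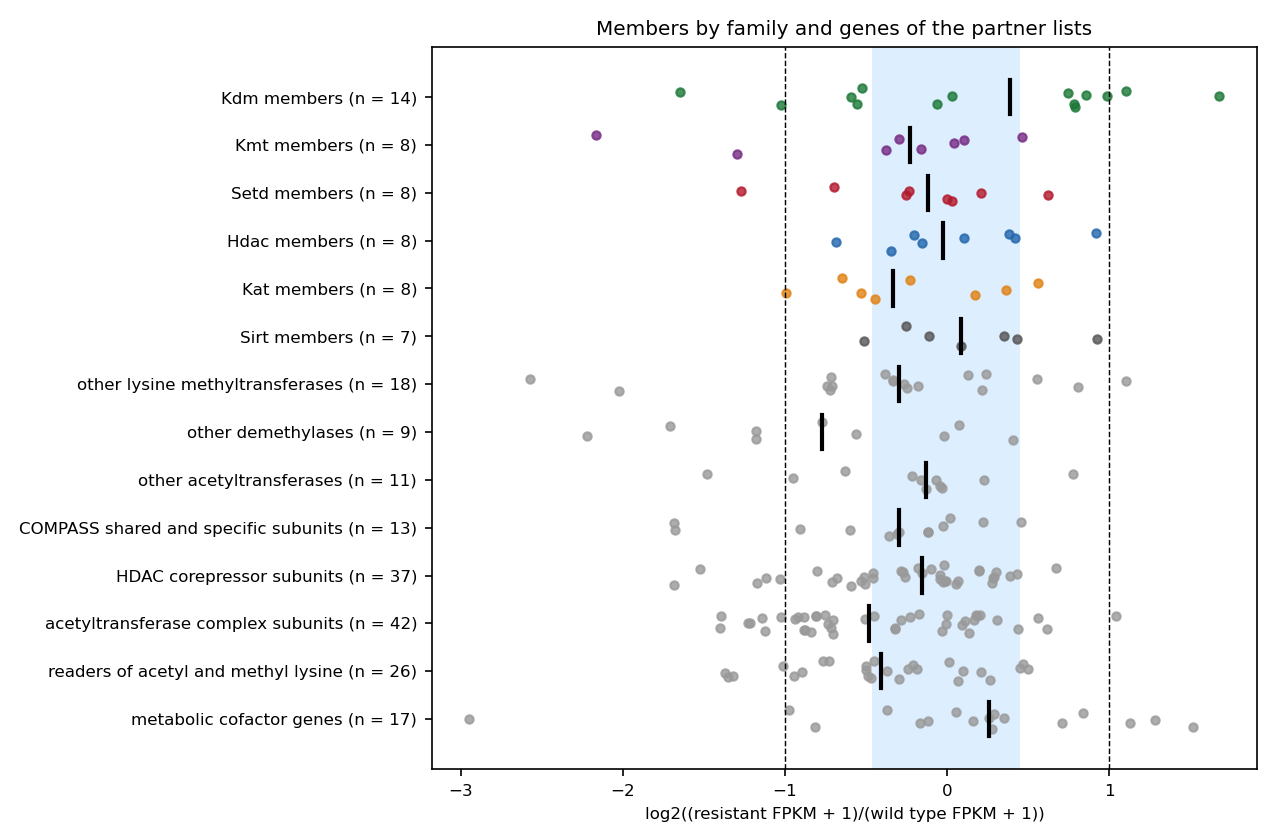
Log2 ratio, resistant over wild type, of measured members by family (coloured) and of the genes in 8 partner lists (grey), 1 point per gene, with black bars at the medians. The blue band runs from the lower to the upper quartile of all measured genes (-0.46 to 0.44) and dashed lines mark 2-fold. The medians of the Kdm members (0.39) and of the acetyltransferase complex subunits (-0.48) lie on opposite sides of 0. The list of other demethylases has the lowest median (-0.77).

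By the test in the authors' deposited table, which also rests on 1 library per group, none of the 53 members tested was called, where 0.404% of all 13850 genes tested in the authors' deposited table were. The 4 unmeasured members were not tested there. The lowest p-value among the members tested in the authors' deposited table was 0.0056 for Kdm7a, with a q-value of 0.40. In the authors' deposited table Kmt5b followed with a p-value of 0.0098 and a q-value of 0.57.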

How the data were processed

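RNA was sequenced from 1 gemcitabine-resistant and 1 wild type KPC2 library, per the labels. HISAT2, StringTie and the build GRCm38 are named in the submitters' processing notes, without roles or versions. No unit is named for the deposited values. They were taken to be FPKM computed by the authors, since they are not whole and sum to 1197280 in the resistant and 998508 in the wild type library. Per the file headers, the deposited table further holds the authors' log2 fold change, their test statistic (a score), and their p-value and q-value.

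Rows of 1 symbol were summed, and 13 rows with a failed or too-deep status, none of them a member, were left out. Genes were placed with GENCODE M21, on GRCm38. The log2 ratio used a pseudocount of 1 FPKM, which understates differences of low genes, and a minimum of 1 FPKM in at least 1 library. Single-transcript genes (1000 to 8000 bases long) gave the worth of a fragment: after 160 bases were taken off the length, 94.3% of values up to 5.5 fragments in the resistant and 93.8% in the wild type library were whole within 0.1 fragments. From this 1 fragment per kilobase was worth 0.0438 and 0.0424 FPKM. Exact binomial intervals (95%) took the longest coding transcript, so a shorter expressed form would widen them, and they cover counting error only. Members, lists and tests were chosen with earlier results of these data known. All measured members are named, and up to 2 genes in each direction past 2-fold from each partner list. Of the reader list, 2 symbols were not matched. Steps were tested on simulated data. Other pseudocounts, level filters, scalings, fold thresholds and row choices were tried. Tools were Python 3.11.15, pandas 2.3.3, numpy 2.4.6, matplotlib 3.10.9 and scipy 1.17.1.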

Additional observations from a re-analysis of the deposited data

How the results depend on the processing

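Without replicates, biological spread is unknown, and the counts depend on the scale. No paired analysis was possible because each group has 1 library. Members at least 2-fold higher numbered 4 at a pseudocount of 0.1 (Kdm1a and Hdac11 added), 4 with none and 1 at 5. They numbered 10 at a 1.5-fold and 0 at a 4-fold threshold. The shares of all measured genes that were higher were 10.8%, 10.5%, 3.51%, 18.4% and 1.80%, in that order. Members at least 2-fold lower numbered 6 at a pseudocount of 0.1 (Kat6a added) and 7 with none (Kat6a and Kdm8 added). They numbered 2 at a pseudocount of 5 (Kdm2a and Kmt5b), 10 at a 1.5-fold threshold and 1 (Kmt5b) at a 4-fold one. Of all measured genes, 12.7%, 12.6%, 2.44%, 19.7% and 1.05% were lower, in that order. Without members that share a locus the counts were 1 and 2 of 39, beside 7.90% and 8.37% of all measured genes, shared loci kept. Kat6a was also past 2-fold when the resistant library was rescaled to a median ratio of 0 or to an equal upper quartile. For all genes, the higher count was 428 at a pseudocount of 5 and 2241 and 220 at thresholds of 1.5-fold and 4-fold, and the lower count was 1553 at a pseudocount of 0.1, 297 at 5, and 2407 and 128 at those thresholds. Of the 156 partner genes, 35 were lower at a pseudocount of 0.1, 9 at 5, and 55 and 3 at those thresholds. The shares of all measured genes that were lower were 12.7%, 2.44%, 19.7% and 1.05%, in that order. For the demethylase and JmjC list the lower count was 1 at 4-fold, and the median ran from -1.37 with no pseudocount to -0.35 at 5. The Kdm median was 0.23 at a pseudocount of 5, 0.024 with every detected gene kept and 0.76 when 5 FPKM was required. The 0.024 was the log2 ratio of Kdm4d, which was listed at 0 in the wild type library. Kdm7a, Kdm4c, Kdm5b and Kdm6b reached 5 FPKM in the resistant library only, and Kdm2b in the wild type only. The filter left out Kdm4b and Kdm8, both lower in the resistant library, so the 0.76 is no measure of a stronger rise. The 5 FPKM requirement gave medians of 0.000288 for Setd, -0.15 for Hdac, -0.23 for Kat and 0.68 for Sirt. The median over all members was then 0.01. The Sirt value rests on Sirt7 and Sirt2 alone, since no other sirtuin gene reached 5 FPKM. Upper quartile rescaling put the median of all measured genes at -0.07 and that of the members at -0.15, and no family median changed sign under either rescaling. The runs without a pseudocount or without shared loci, the protein-coding background, and the counts over the partner lists together, were chosen after seeing the data. No measured member at least 2-fold apart changed sign under any alternative run, but these runs could hardly have changed one. A pseudocount, a filter or a threshold cannot turn the sign of a ratio. The rescalings shifted ratios little, for Kdm1b from 1.11 to 1.09 and 1.02. The unchanged signs therefore say nothing about how stable the differences are.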

Other observations

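Among 17 measured genes for the metabolism of these enzymes' cofactors, 3 were at least 2-fold higher in the resistant library and 1 lower. Of all measured genes, 7.90% were higher and 8.37% lower. The list's median log2 ratio was 0.26, and not every gene in it supplies a cofactor. Acss2, for the enzyme that makes acetyl-CoA from acetate, stood at 14.4 FPKM in the resistant and 4.38 FPKM in the wild type library. Nmnat3, for an NAD+ synthesis enzyme, stood at 6.61 against 2.13 FPKM. Ogdh, for a subunit of the 2-oxoglutarate dehydrogenase complex, named after its values were seen, stood at 98.8 against 44.6 FPKM. Mat2a, which makes S-adenosylmethionine, the methyl donor of all SET-domain enzymes, was the lowest at 8.27 against 70.5 FPKM. The list was fixed with earlier results for Mat2a known.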
